A study of Homo sapiens with 10 samples.

Results

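The genes described here are the collagens, the ADAMTS proteins and the lysyl oxidases in H1, a human embryonic stem cell line. Members are the gene rows of the deposited table whose name begins with COL, a number, A and a number, or with ADAMTS or LOX, which gave 53 of 13808 gene rows. They comprise 31 collagen chains, 17 ADAMTS or ADAMTS-like genes, of which 15 encode proteases, 4 lysyl oxidases, and COL4A3BP. The last encodes a ceramide transfer protein and shares only its name with the collagens. Of 75 protein-coding genes of GENCODE release 29 that match the rule, 22 were not in the table, whose rows all reach at least 80 in at least 2 libraries. COL28A1 was the only member whose values of at least 80 lay in 1 group, shKDM1A, so its entry into the table depended on that group.

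RNA was sequenced after virus carrying a short hairpin RNA (shRNA) against SMARCA4, MAFK, E2F6 or KDM1A had been added to H1 cells, which the labels call wild type. The control group, shLUC, received an shRNA against luciferase, and all 5 groups went through virus delivery and puromycin selection on Matrigel, a basement membrane extract. SMARCA4 is the ATPase of a chromatin remodelling complex, MAFK a small MAF transcription factor, E2F6 a repressive E2F factor and KDM1A a histone demethylase. Each group had 2 libraries, described as biological duplicates of 1 cell line, and how many hairpins were used per target is not given in the sources used here.

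Collagens are built from chains that fold into triple helices, and many types need different chains from separate genes in 1 molecule. Fibrillar types carry tension, type IV forms the network of basement membranes, and other types bind to fibrils or form filaments. ADAMTS proteases are secreted enzymes that trim procollagens, cleave proteoglycans such as versican and aggrecan, or act on single substrates such as von Willebrand factor, whereas ADAMTS-like proteins lack the protease domain. Lysyl oxidases cross-link collagen and elastin outside the cell. Type IV collagen is the type of epithelial basement membranes, while types I and VI are classically products of mesenchymal cells.

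The targeted genes were lower in their own libraries, with 1 exception. SMARCA4 was at 1100 and 985 normalized tag counts in shSMARCA4 against 8086 and 8374 in shLUC, KDM1A at 3290 and 1879 against 6344 and 5925, and E2F6 at 336 and 304 against 491 and 553. MAFK was at 82 and 216 in the libraries labelled shMAFK against 212 and 288, so the library labelled shMAFK replicate 2 lay within the control range and directions in that group are given with this limit. Library totals were fixed by the normalization at 22836548 to 22855295, so the read depth is unknown. One library stood apart: shKDM1A replicate 1 held the highest value of the 10 libraries in 24.2% of all 14785 rows and the lowest in 26.8%. For shKDM1A against shLUC, the number of calls, the number of fitted 2-fold rises and the median of the members are given with and without it. Direct contrasts with shKDM1A are given only with it.

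Markers of other cell types moved with shSMARCA4. The 12 markers of undifferentiated stem cells were all in the table and none passed the test against shLUC in any knockdown. At an unadjusted limma p under 0.05 there were 4 (shSMARCA4), 0 (shMAFK), 1 (shE2F6) and 0 (shKDM1A), beside 16.3%, 8.77%, 5.09% and 11.5% of all rows. In shSMARCA4 both libraries lay above both controls for NANOG, at 4613 and 3699 against 2512 and 2639. They lay below for SOX2, at 4426 and 4748 against 6408 and 6928, and for LIN28A, TDGF1, SALL4 and UTF1. The summed value of the 12 markers was 147003 to 175207 in 9 libraries and 273150 in shKDM1A replicate 1, where POU5F1 alone was at 148866. That is the highest value the normalization gives in each of the 10 libraries, so it marks the top rank in that library. Of 13 fibroblast or mesenchyme markers 7 were in the table, and their summed value was 11391 and 11727 in shLUC and 4555 and 4511 in shSMARCA4, where PDGFRB, THY1 and S100A4 fell, with log2 changes of -1.79, -1.56 and -1.27 (highest limma adjusted p of these 0.0375). It was 9403 and 6467 (shMAFK), 12436 and 10379 (shE2F6), and 8582 and 11069 (shKDM1A) in the remaining libraries. THY1 alone was at 8852 and 9056 in shLUC, 2794 and 3314 in shSMARCA4, and 6928 and 4196 in shMAFK. The sums therefore follow mostly this 1 gene. Of 10 mesendoderm and endoderm markers 4 were in the table, with a summed value of 82 and 71 (shLUC), 7385 and 1198 (shSMARCA4), 19 and 15 (shMAFK), 119 and 64 (shE2F6), and 80 and 34 (shKDM1A). Each of these 4 reached 80 only in the shSMARCA4 libraries, so their entry into the table depended on that group. That they are higher there was thus fixed in advance, and their values are given as a description only. MIXL1 rose in shSMARCA4, at 1809 and 132 against 20 and 14, so by far more in replicate 1. There EOMES was at 2430 and 724 against 14 and 34, and CER1 at 2354 and 172 against 44 and 21. FOXA2 was at 792 and 170 against 4 and 2. Of these 4 markers 1 passed the test in shSMARCA4. FOXA2 was at 0 to 4 in all libraries outside shSMARCA4, with 0 in both shMAFK libraries. In shSMARCA4 ZIC1 rose among 3 of 7 neural markers in the table, and KRT7, the only one of 7 trophoblast markers present, fell. The summed neural value was 6069 and 7026 in shLUC, 7207 and 4498 in shSMARCA4 and 4754 to 10984 in the other 6 libraries, and KRT7 was at 218 and 296, 30 and 44, and 125 to 360 in these libraries. The part of these markers in the results on collagens was not tested, and in bulk RNA fewer cells of a type and less RNA per cell cannot be told apart.

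COL18A1, COL6A1 and COL26A1 had the highest levels per kilobase of the members in control cells. Per kilobase of exon in shLUC, COL18A1, a basement membrane collagen that is the source of endostatin, was at 2073 and 2183, the 97.8 percentile among genes. COL6A1 followed at 1418 and 1590 per kilobase, COL26A1 at 780.1 in both libraries, COL6A2 at 588 and 743, and ADAMTS7, a protease of cartilage oligomeric matrix protein, at 384 and 374. The order of these 5 was the same in both control libraries, and COL26A1 and COL6A2 were the closest neighbours in replicate 2. ADAMTS7 overlaps MORF4L1 on the opposite strand, which was at 12340 and 11277 in shLUC. As the use of strand is not given, reads of that overlap cannot be told apart. The third type VI chain, COL6A3, was far lower, at 17.0 and 17.6 per kilobase.

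**Figure D1:**
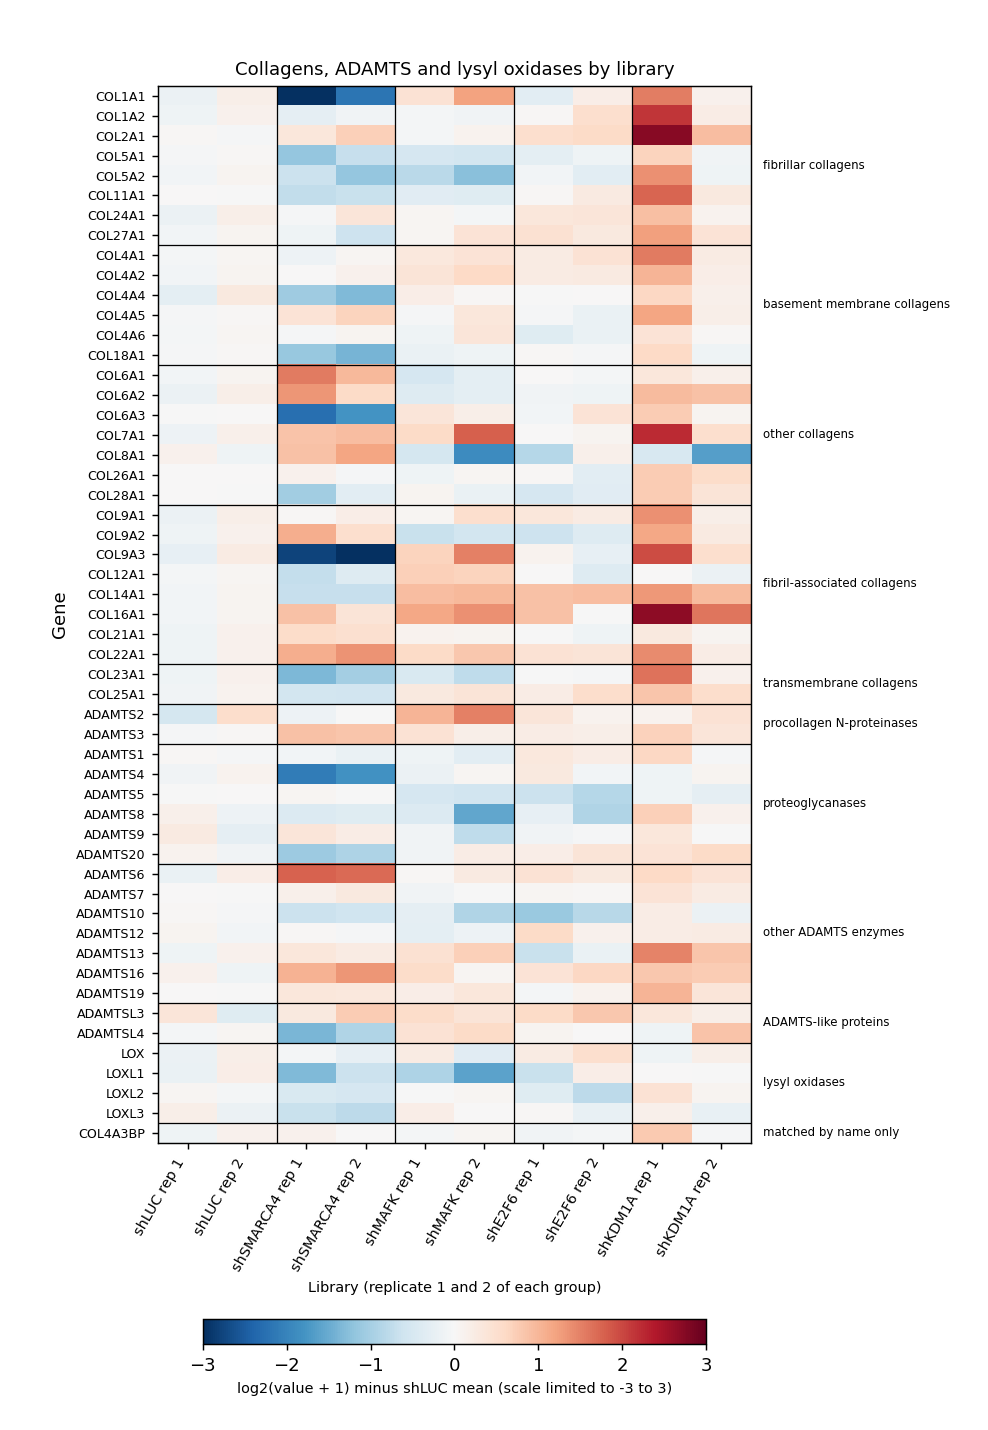
Each row is 1 of the 53 members, ordered by class, and each column 1 of the 10 libraries; colour is log2(value + 1) minus the shLUC mean of that gene, on a scale limited to -3 to 3. COL1A1, COL6A3, COL9A3 and ADAMTS4 are darkest blue in shSMARCA4, COL6A1 and ADAMTS6 are red there, and the column of shKDM1A replicate 1 is red through most collagen rows.

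Depletion of SMARCA4 came with changes of both signs. Compared with shLUC, 12 of 53 members (22.6%) passed limma's test at an adjusted p under 0.05 on log2(value + 1), beside 4.18% of all rows. The proteases ADAMTS3, ADAMTS6 and ADAMTS16 and the chain COL6A1 rose, 4 members beside 1.67% of all rows. COL1A1, COL4A4, COL6A3, COL9A3, COL14A1, COL18A1, ADAMTS4 and ADAMTS20 fell, 8 members beside 2.51% of all rows. The median log2 change of the 53 members was -0.05 and that of all rows 0.01, while the median absolute change was 0.61 against 0.21. At an unadjusted limma p under 0.05 there were 24 members, beside 16.3% of all rows, and the libraries did not overlap those of shLUC for 39 members, beside 51% of all rows. Of these 16 were higher (all rows 25.6%) and 23 lower (all rows 25.4%), and group means differed by at least 2-fold upwards for 5 members (all rows 2.18%) and downwards for 9 (all rows 3.45%). The number of calls depended on single libraries: it was 2 without shLUC replicate 1 (ADAMTS4, COL6A3) and 2 without shLUC replicate 2 (ADAMTS4, ADAMTS6), beside 0.859% and 0.602% of all rows. It was 7 and 6 without shSMARCA4 replicate 1 and 2 (all rows 1.67% and 1.31%), and 20 without either shKDM1A library (all rows 7.79% and 7.84%).

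Among the fibrillar collagens 1 of 8 passed the test in shSMARCA4. COL1A1, a chain of type I collagen (chr17:50183289-50201632, minus strand), was at 2555 and 3226 in shLUC and at 311 and 629 in shSMARCA4. In the other groups it was at 3873 and 6578 (shMAFK), 2312 and 3276 (shE2F6), and 8374 and 3126 (shKDM1A). The shSMARCA4 libraries were the lowest of all 10, and COL1A1 fell by 2.70 on the log2 scale (SE 0.487, limma adjusted p = 0.0178). This call was lost without either shLUC library or without shSMARCA4 replicate 1, with log2 changes of -3.20 to -2.19 when 1 library was left out and a highest limma adjusted p of 0.153 over all alternatives.

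COL1A2, the partner chain that joins COL1A1 in type I collagen, did not follow it. It was at 2740 and 3262 in shLUC and at 2483 and 2794 in shSMARCA4, so these groups overlapped, and the change of -0.18 on the log2 scale (SE 0.486) gave a limma adjusted p of 0.927. Relative to its shLUC mean, the log2 ratio of COL1A1 to COL1A2 was -2.93 and -2.09 in shSMARCA4 and 0.48 and 1.31 in shMAFK, and it lay between -0.59 and 0.04 in the other 6 libraries. The type V chains COL5A1 and COL5A2, which help to start fibrils, were lower in both shSMARCA4 libraries at 314 and 438 (shLUC 686 and 724) and at 812 and 566 (shLUC 1200 and 1356), and neither passed the test (limma adjusted p = 0.0901 and 0.319).

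Of the chains of type VI collagen, which assemble into beaded filaments, COL6A1 rose and COL6A3 fell. COL6A1 (chr21:45981737-46005050, plus strand) was at 7578 and 8497 in shLUC and at 23459 and 15764 in shSMARCA4, while the other 6 libraries lay between 5628 and 10074. Both shSMARCA4 libraries were above all others, and COL6A1 rose by 1.26 (SE 0.195, limma adjusted p = 0.0099). COL6A2, which lies 93.0 kilobases downstream on the same strand (chr21:46098097-46132849), was at 3168 and 4004 in shLUC and at 8854 and 5302 in shSMARCA4. Its groups did not overlap, but with a log2 change of 0.94 (SE 0.231) it did not pass the test (limma adjusted p = 0.0583). COL6A3, the larger chain on another chromosome (chr2:237324003-237414375, minus strand), was at 334 and 345 in shLUC and at 70 and 97 in shSMARCA4, the lowest of all libraries. It fell by 2.03 (SE 0.268, limma adjusted p = 0.00469). The log2 ratio of COL6A3 to COL6A1, relative to its shLUC mean, was -3.81 and -2.77 in shSMARCA4 and from -0.10 to 0.89 in the other 8 libraries. The COL6A1 call was lost without either shLUC library and that of COL6A3 without shLUC replicate 2, with highest limma adjusted p-values of 0.0968 and 0.0633. For COL6A1 the step to a neighbouring rank in a library was at most 0.093 on the log2 scale.

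The stretches of 250 bases before the RefSeq start sites of COL6A2 and COL6A3 (GRCh38.p14) are shown because these chains belong to 1 molecule and their shSMARCA4 values lay on opposite sides of shLUC, that of COL6A2 without passing the test. Both strands were searched for the CCAAT box, whose letters are CCAAT, for the GC box, written GGGCGG, and for the TATA box, written TATAAA. They were also searched for a core motif of E2F factors, TTCCCGC. The fifth search was for the motif of small MAF proteins with their CNC partners, TGACNNNGC. Capitals mark every match. That of COL6A2 is chr21:46097862-46098111 on the plus strand and that of COL6A3 chr2:237414165-237414414 on the minus strand. In GENCODE the COL6A2 and COL6A3 genes begin 15 and 211 bases further upstream.
COL6A2: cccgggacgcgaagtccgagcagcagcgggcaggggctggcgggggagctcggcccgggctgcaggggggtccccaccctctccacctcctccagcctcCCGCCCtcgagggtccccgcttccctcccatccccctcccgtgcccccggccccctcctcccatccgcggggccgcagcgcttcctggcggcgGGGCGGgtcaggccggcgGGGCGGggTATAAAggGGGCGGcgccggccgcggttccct
COL6A3: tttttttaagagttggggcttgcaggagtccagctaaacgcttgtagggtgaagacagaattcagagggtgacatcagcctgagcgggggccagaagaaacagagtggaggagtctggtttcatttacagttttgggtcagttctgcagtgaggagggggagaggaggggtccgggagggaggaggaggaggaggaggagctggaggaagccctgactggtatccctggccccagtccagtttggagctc

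The COL6A2 stretch had 79.6% G and C, 28 CpG dinucleotides, 4 matches of the GC box and 1 of the TATA box. The COL6A3 stretch had 56.0% G and C, 3 CpG dinucleotides and no match of these 5 motifs. Of the 53 members 36 had a RefSeq promoter entry, and 24 of those (66.7%) held a GC box, beside 42.3% of all 27305 promoter stretches of the same length. The median G and C content was 68.6% in the 36 and 58.0% in all. The CCAAT box was found in 25% of the 36 and 33.0% of all, the TATA box in 8.3% and 11.1%, the E2F motif in 5.6% of both, and the MAF motif in 8.3% and 11%. Matches of different motifs overlapped 0 times in the members' stretches. These matches describe the letters only.

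Of the 8 fibril-associated collagens, which decorate the surface of fibrils, COL9A3 and COL14A1 passed the test in shSMARCA4. COL9A3, a chain of the cartilage collagen type IX (chr20:62816244-62841159, plus strand), was at 824 and 1145 in shLUC and at 141 and 83 in shSMARCA4. In the other groups it was at 1543 and 2768 (shMAFK), 1048 and 816 (shE2F6), and 3781 and 1384 (shKDM1A). It fell by 3.15 in shSMARCA4 (SE 0.472, limma adjusted p = 0.00861), to 11.4% of the control mean, with both libraries below the other 8. The partner chain COL9A1 was at 543 and 692 in shLUC and 629 and 702 in shSMARCA4, and COL9A2 at 48 and 58 against 113 and 75, without passing the test (limma adjusted p = 0.932 and 0.391). COL9A3 overlaps TCFL5, which was at 366 and 303 in shSMARCA4 and 410 and 464 in shLUC (limma adjusted p = 0.724). COL22A1, type XXII collagen, was at 76 and 92 in shLUC and at 180 and 214 in shSMARCA4. Its groups did not overlap, and it was higher by 1.22 on the log2 scale (SE 0.35) without passing the test (limma adjusted p = 0.103). The COL9A3 call was lost without either shLUC library or shSMARCA4 replicate 2 (highest limma adjusted p = 0.0943).

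**Figure D2:**
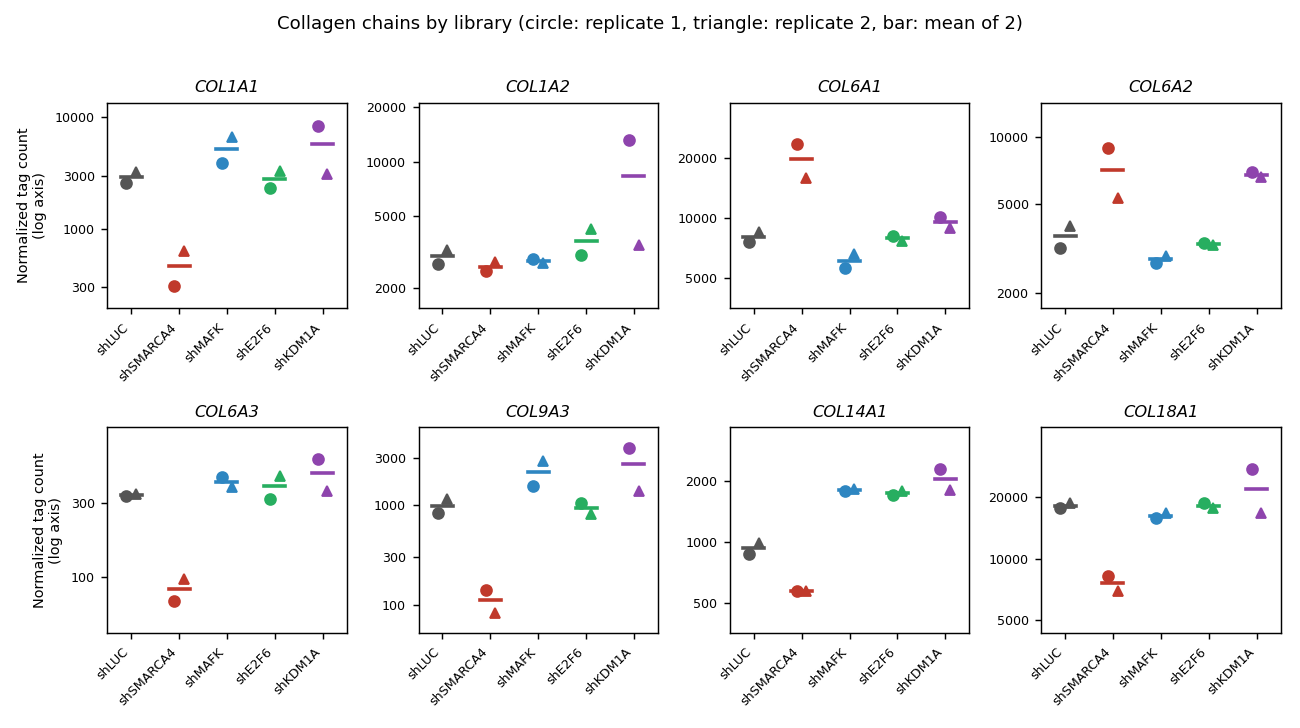
Normalized tag counts of 8 collagen chains in each library on log axes; circles are replicate 1, triangles replicate 2 and bars the mean of the 2 libraries. COL1A1, COL6A3, COL9A3, COL14A1 and COL18A1 are lowest in both shSMARCA4 libraries, COL6A1 is highest there, and the circle of shKDM1A lies above its triangle in every panel.

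COL14A1, type XIV collagen (chr8:120059780-120372036, plus strand), differed from shLUC in both directions. It was at 870 and 985 with shLUC, 575 and 570 with shSMARCA4, 1770 and 1809 with shMAFK, 1701 and 1770 with shE2F6, and 2282 and 1788 with shKDM1A. The shSMARCA4 libraries were the lowest of all, and the 6 libraries of the other knockdowns were all above both controls. In shSMARCA4 COL14A1 fell by 0.69 (SE 0.163, limma adjusted p = 0.04999), a value at the threshold that passed it under 8 of 21 alternatives. In shMAFK, shE2F6 and shKDM1A the log2 values were higher by 0.95, 0.91 and 1.13, each with SE 0.163, without passing the test (limma adjusted p = 0.14, 0.28 and 0.0982). These comparisons share the control libraries. Direct contrasts that do not use the shLUC mean gave -1.64, -1.60 and -1.82 for shSMARCA4 minus shMAFK, shE2F6 and shKDM1A (limma adjusted p = 0.000822, 0.00226 and 0.000798).

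Of the 6 basement membrane collagens, COL18A1 and COL4A4 passed the test in shSMARCA4. COL18A1 (chr21:45405137-45513720, plus strand) was at 17675 and 18610 in shLUC and at 8223 and 6930 in shSMARCA4, the lowest of all libraries, while the other 6 lay between 15764 and 27330. It fell by 1.26 (SE 0.211, limma adjusted p = 0.013), and the call was lost without either shLUC library or shSMARCA4 replicate 2 (highest limma adjusted p = 0.12). SLC19A1, a folate carrier gene that overlaps COL18A1 on the opposite strand, was at 2104 and 2012 in shSMARCA4 and 4036 and 4613 in shLUC, and fell by 1.07 (limma adjusted p = 0.0101). Whether the counting used the strand is not given in the sources used here, so reads of the overlapping parts cannot be told apart. COL4A4, a chain of specialised basement membranes (chr2:227002711-227164453, minus strand), was at 99 and 151 in shLUC and 58 and 48 in shSMARCA4. It fell by 1.20 (SE 0.275, limma adjusted p = 0.0457) and passed the test under 10 of 21 alternatives, but not when any library other than those of shKDM1A was left out (highest limma adjusted p = 0.356).

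The type IV chains of ordinary basement membranes, COL4A1 and COL4A2, did not pass the test in any knockdown. COL4A1 was at 2224 and 2450 in shLUC and 2112 and 2412 in shSMARCA4, and COL4A2 at 2282 and 2586 against 2441 and 2664. Both pairs overlapped, with log2 changes of -0.05 (SE 0.344) and 0.07 (SE 0.243). The log2 ratio of COL4A1 to COL4A2, relative to its shLUC mean, stayed between -0.19 and 0.56 over the 10 libraries, a range of 0.746, against a range of 4.25 for COL1A1 to COL1A2. The range was 1.14 for COL6A1 to COL6A2, 1.38 for COL5A1 to COL5A2 and 2.1 for COL9A2 to COL9A1, none of which lie head to head. For the ratios with COL6A3 or COL9A3 it was 4.33 to 4.72. The ratio of COL4A5 to COL4A6, which like COL4A1 and COL4A2 lie head to head, had a range of 0.815, with 379 bases between their start sites. These genes sit back to back, and the 126 bases between the RefSeq start sites of COL4A1 (minus strand) and COL4A2 (plus strand), chr13:110307158-110307283, are shown as the stretch between these starts. GENCODE starts COL4A1 and COL4A2 76 and 1472 bases further upstream, so that the genes overlap there, and as the use of strand is not given, reads from the overlap cannot be told apart in this ratio.
COL4A1 and COL4A2, plus strand, CCAAT box and GC box in capitals: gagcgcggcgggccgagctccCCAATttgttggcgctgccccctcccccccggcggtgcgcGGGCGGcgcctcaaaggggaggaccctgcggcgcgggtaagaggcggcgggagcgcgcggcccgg

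**Figure D3:**
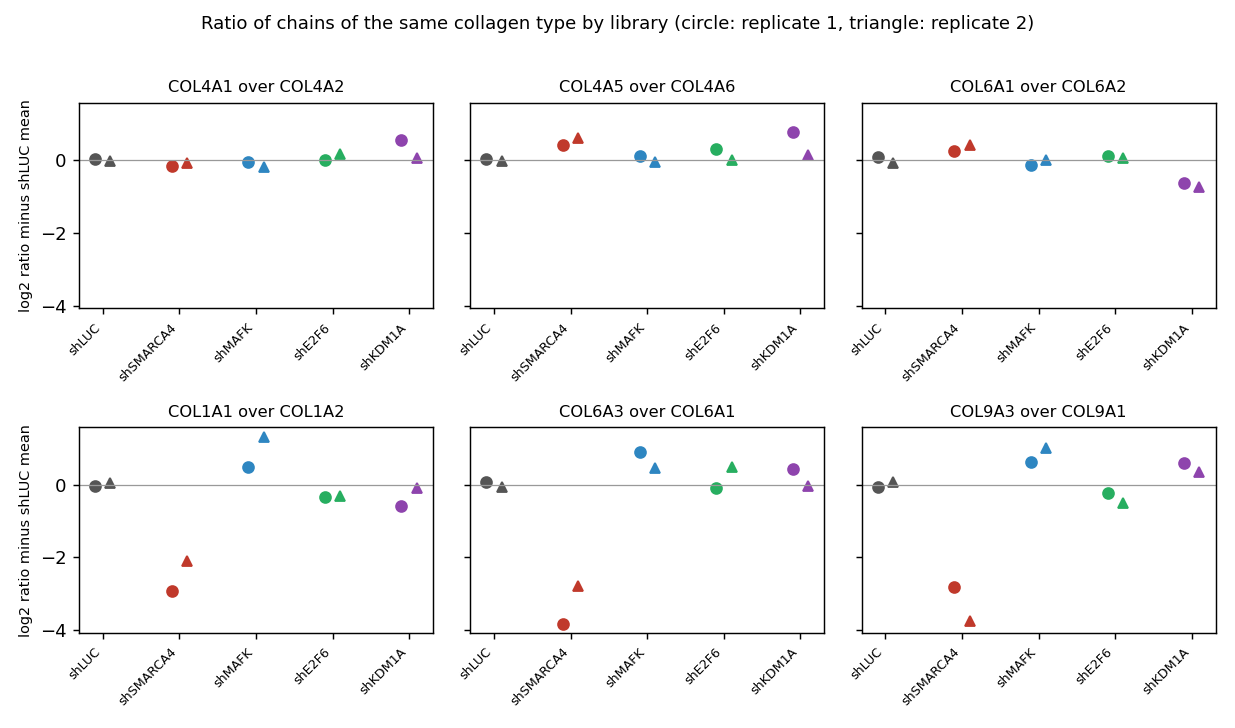
Log2 ratio of chains that belong to 1 collagen type, minus the shLUC mean of that ratio, in each library (circle replicate 1, triangle replicate 2). The ratios of COL4A1 to COL4A2 span 0.746 over the 10 libraries and those of COL6A1 to COL6A2 span 1.14. COL1A1 to COL1A2, COL6A3 to COL6A1 and COL9A3 to COL9A1 are at -2.09 or lower in both shSMARCA4 libraries.

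Among the ADAMTS proteases that cleave proteoglycans, ADAMTS4 and ADAMTS20 fell in shSMARCA4. ADAMTS4, an aggrecanase (chr1:161184308-161199056, minus strand), was at 186 and 212 in shLUC, at 46 and 56 in shSMARCA4, and between 176 and 242 in the other 6 libraries. Its shSMARCA4 libraries were far below all others, and it fell by 1.95 (SE 0.218, limma adjusted p = 0.00227), a call made under all 21 alternatives. ADAMTS20, which cleaves versican (chr12:43353866-43551921, minus strand), was at 280 and 244 in shLUC and 122 and 137 in shSMARCA4, and fell by 1.01 (SE 0.182, limma adjusted p = 0.0175). The aggrecanase ADAMTS5 was at 91 and 94 in shLUC and 97 and 91 in shSMARCA4 and did not follow ADAMTS4 (log2 change 0.02, SE 0.257). The ADAMTS20 call was lost when either library of shLUC or of shSMARCA4 was left out (highest limma adjusted p = 0.154).

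ADAMTS6, ADAMTS16 and ADAMTS3 rose in shSMARCA4. ADAMTS6, a relative of ADAMTS10 (chr5:65148736-65481920, minus strand), was at 64 and 85 in shLUC, at 254 and 242 in shSMARCA4, and between 75 and 113 elsewhere. Its shSMARCA4 libraries stood above all others, and the log2 value rose by 1.74 (SE 0.236, limma adjusted p = 0.0054), whereas ADAMTS10 was at 131 and 136 against 210 and 200 without passing the test (limma adjusted p = 0.262). ADAMTS16 (chr5:5140330-5320304, plus strand) was at 300 and 252 in shLUC and 564 and 694 in shSMARCA4, and rose by 1.18 (SE 0.203, limma adjusted p = 0.0142). ADAMTS3, a procollagen N-proteinase (chr4:72280969-72569386, minus strand), was at 162 and 168 in shLUC and 302 and 296 in shSMARCA4, and rose by 0.85 (SE 0.18, limma adjusted p = 0.034). The N-proteinase ADAMTS2 was at 62 and 132 against 82 and 90, an overlap. The ADAMTS6 call was lost without shLUC replicate 1 (limma adjusted p = 0.0578), that of ADAMTS16 without either shLUC library or shSMARCA4 replicate 2 (highest 0.144), and that of ADAMTS3 when any library other than those of shKDM1A was left out (highest 0.205).

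**Figure D4:**
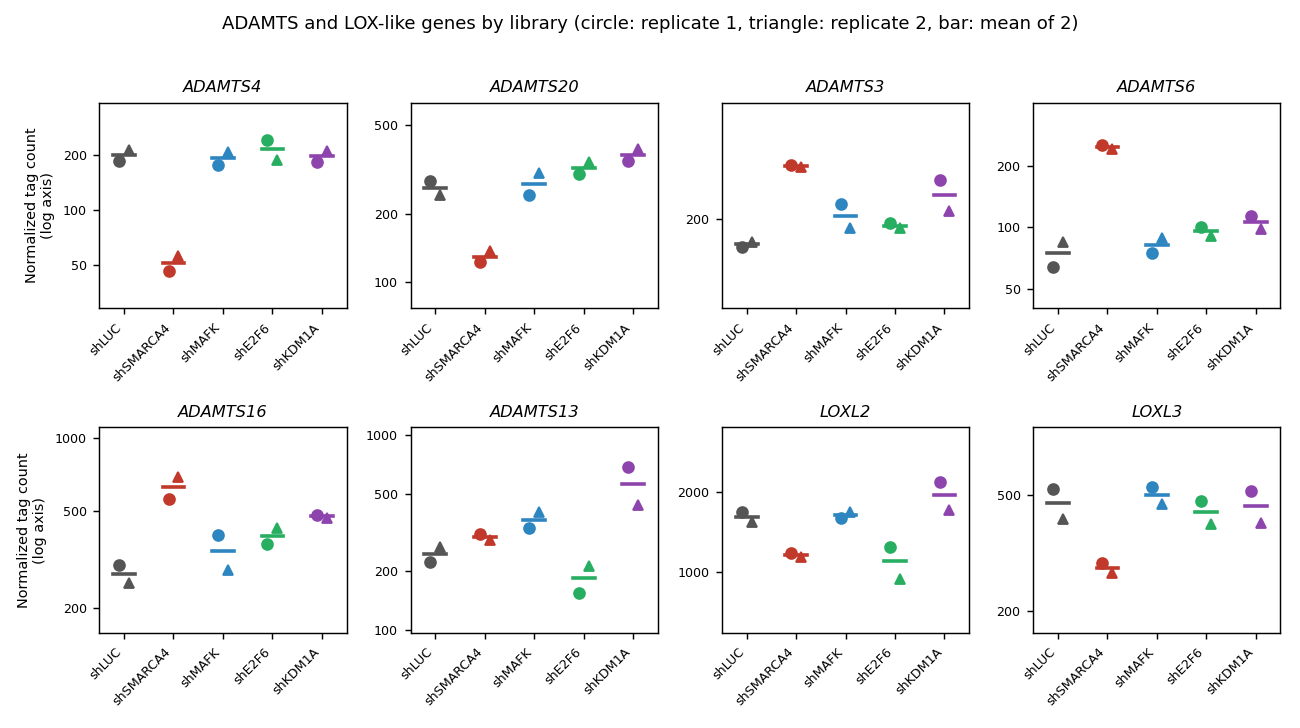
Normalized tag counts of 6 ADAMTS genes, LOXL2 and LOXL3 in each library on log axes; circles are replicate 1, triangles replicate 2 and bars the mean of the 2 libraries. ADAMTS4 at 46 and 56 and ADAMTS20 at 122 and 137 are lowest in shSMARCA4, where ADAMTS6 at 254 and 242 is highest.

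The lysyl oxidases gave no call against shLUC in the fit of all 10 libraries. In shSMARCA4, LOXL3 was at 292 and 270 against 524 and 414 in shLUC, LOXL2 at 1181 and 1137 against 1681 and 1547, and LOXL1 at 80 and 129 against 174 and 232. These 3 enzymes were below both controls in both libraries, by -0.73, -0.48 and -0.98 on the log2 scale, and did not pass the test (limma adjusted p = 0.0769, 0.241 and 0.211). LOXL3 passed in shSMARCA4 with a separate weight for each group and without either or both shKDM1A libraries, and LOXL1 passed in shMAFK with group weights. In direct contrasts LOXL3 was lower in shSMARCA4 than in shMAFK (-0.82, limma adjusted p = 0.032) and LOXL2 lower in shSMARCA4 than in shKDM1A (-0.74, limma adjusted p = 0.0496). LOX itself overlapped the controls at 88 and 77 against 80 and 104. In the other groups LOX ranged from 72 to 130 over 6 libraries.

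Among genes that make, carry, bind or cut matrix proteins, versican and a fibrillin rose and 6 genes fell in shSMARCA4. Of 108 genes in 7 such lists 74 were in the table, and 8 (10.8%) passed the test in shSMARCA4, beside 4.18% of all rows. Of 19 folding and modification enzymes present, PLOD1, a lysyl hydroxylase, fell, at 766 and 834 against 1418 and 1264 in shLUC (log2 change -0.74, limma adjusted p = 0.0431). None of 10 export and propeptide processing genes, 6 collagen receptors, 13 elastic fibre partners and 2 small proteoglycans passed, with 3, 1, 3 and 0 of them at an unadjusted limma p under 0.05. Of 15 ADAMTS substrates and inhibitors, 2 rose and 2 fell. Versican (VCAN), the proteoglycan that several ADAMTS enzymes cleave, was at 10349 and 14274 in shSMARCA4 against 6012 and 6143, and rose by 1.00 (limma adjusted p = 0.0398). FBN2, a fibrillin, was at 2808 and 3226 against 1396 and 1576 and rose by 1.02 (limma adjusted p = 0.0316). The inhibitor TIMP3 was at 124 and 116 against 280 and 272 and fell by 1.20, and PAPLN, a matrix protein with ADAMTS-like domains, was at 274 and 352 against 810 and 1080 and fell by 1.59 (limma adjusted p = 0.0143 and 0.0103). Of 9 matrix metalloproteinases, the membrane-bound MMP15, MMP16 and MMP24 fell, and their changes on the log2 scale were -0.64, -1.27 and -2.58 (limma adjusted p = 0.0347, 0.0457 and 0.0017). In shMAFK, shE2F6 and shKDM1A 0 of the 74 passed, with 16, 9 and 12 at an unadjusted limma p under 0.05, beside 8.77%, 5.09% and 11.5% of all rows. For shSMARCA4, shMAFK, shE2F6 and shKDM1A the median log2 changes of the 74 were 0.03, -0.03, -0.07 and 0.17.

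Differences among the 4 knockdowns were tested by limma's moderated F-test on contrasts that do not use the shLUC mean. It was passed by 15 of 53 members (28.3%), beside 6.64% of all rows, with the lowest adjusted p for COL14A1 (limma adjusted p = 0.00173), ADAMTS4 (0.00274), COL6A3 (0.00314) and COL9A3 (0.00326). COL1A1, COL4A4, COL6A1, COL18A1, ADAMTS6 and ADAMTS20 passed too, as did 5 members without a call against shLUC: COL6A2, COL12A1, COL25A1, ADAMTS13 and ADAMTSL4. In direct contrasts shSMARCA4 differed from shMAFK in 17 members, from shE2F6 in 11 and from shKDM1A in 18, beside 7.76%, 3.55% and 6.87% of all rows. The 3 contrasts between the other knockdowns gave 0 members each, beside 0.487%, 0.0406% and 0.129% of all rows. With shSMARCA4 out of the F-test 0 members passed, beside 0.25% of all rows. At an unadjusted limma p under 0.05 there were 21 members. The share of all rows was not counted for that threshold, so the 21 cannot be set against a background. The count was 6 and 8 without shSMARCA4 replicate 1 and 2 (all rows 1.88% and 1.91%), and 40 without shKDM1A replicate 2, where 35.9% of all rows passed.

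Among these 5, ADAMTS13, the protease of von Willebrand factor, was at 224 and 266 with shLUC, 311 and 288 with shSMARCA4, 333 and 404 with shMAFK, 154 and 213 with shE2F6, and 686 and 436 with shKDM1A (F-test limma adjusted p = 0.0256). It was lowest in shE2F6 and highest in shKDM1A, and the direct difference of -1.59 did not pass (limma adjusted p = 0.0618). COL25A1, a transmembrane collagen, was at 172 and 170 in shSMARCA4, 234 and 272 in shLUC, and between 296 and 452 in the other knockdowns (F-test limma adjusted p = 0.0151). Its shSMARCA4 libraries were the lowest and every other knockdown library lay above both controls. COL12A1, type XII collagen, was at 204 and 199 in shMAFK, 76 and 96 in shSMARCA4, and between 96 and 130 in the rest (F-test limma adjusted p = 0.0455). ADAMTSL4, an ADAMTS-like protein, was at 50 and 70 in shSMARCA4, 126 and 138 in shLUC, and between 121 and 238 in the others (F-test limma adjusted p = 0.0391). COL6A2 passed with 0.0166 and was also high in shKDM1A, at 6930 and 6580. The COL12A1 and ADAMTSL4 calls were lost when any library other than those of shKDM1A was left out, and that of ADAMTS13 likewise except for shE2F6 replicate 2 (highest limma adjusted p = 0.21, 0.213 and 0.101). The COL25A1 call was lost without either shSMARCA4 library and that of COL6A2 without either shMAFK library (highest limma adjusted p = 0.107 and 0.0703).

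Knockdown of KDM1A came with higher collagen values, mostly in 1 library. With limma 0 of 53 members passed the test against shLUC, beside 0.0271% of all rows, with 22 at an unadjusted limma p under 0.05, all higher, beside 5.85% of all rows. The log2 change was above 0 for 48 of 53 members, beside 47.9% of all rows, and the median was 0.51 against -0.02. Both libraries lay above both controls for 28 members, beside 17.9% of all rows, with COL28A1, which entered the table through this group, among them, and below them for ADAMTS5 and COL8A1, beside 20.9%. Group means differed by at least 2-fold upwards for 10 members, beside 1.86% of all rows, and downwards for 0, beside 1.06%. The upward count rests on replicate 1: a fitted log2 change of at least 1 was found for 8 members, for 1 without replicate 1 and for 19 without replicate 2, beside 1.54%, 1.33% and 5.21% of all rows.

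The 2 shKDM1A libraries disagreed over collagens. Replicate 1 held the highest of all 10 values for 34 of 53 members (64.2%), beside 24.2% of all rows, and the lowest for 0. Relative to the shLUC mean, the median log2 value of the 31 collagen chains was 1.16 in replicate 1 and 0.20 in replicate 2, while that of all gene rows was -0.02 and -0.03. Replicate 1 was above replicate 2 for 31 of 31 collagen chains, for 12 of 17 ADAMTS or ADAMTS-like genes and for 6811 of 13808 gene rows. The gap was at least 2-fold on log2(value + 1) for 14 collagen chains (45.2%) and 0 ADAMTS genes, beside 4.87% of all rows. The median gap was 0.82 for collagens and 0.18 for ADAMTS genes. KDM1A itself was at 3290 in replicate 1 and 1879 in replicate 2, and the part of this difference, or of other properties of the library, in the collagen values was not tested.

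**Figure D5:**
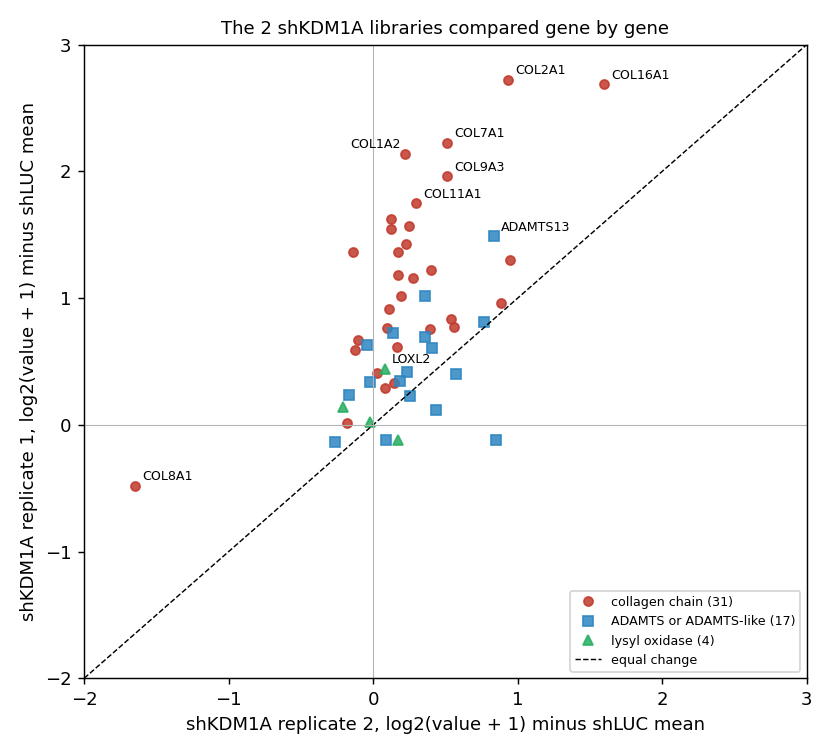
Each point is 1 of 52 members (COL4A3BP is left out), placed by its log2(value + 1) minus the shLUC mean in shKDM1A replicate 2 (x axis) and replicate 1 (y axis); the dashed line marks equal change. All 31 collagen chains lie above the line, while 12 of 17 ADAMTS or ADAMTS-like genes do.

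COL16A1, a fibril-associated collagen, had the largest change in shKDM1A. It was at 119 and 134 in shLUC and at 818 and 384 in shKDM1A, a gain of 2.14 on the log2 scale (SE 0.382, limma adjusted p = 0.132), 2.69 from replicate 1 alone and 1.60 from replicate 2 alone. COL2A1, the fibrillar collagen of cartilage, was at 79 and 75 in shLUC and 514 and 148 in shKDM1A (log2 change 1.83, SE 0.472, limma adjusted p = 0.265). COL7A1, the anchoring fibril collagen, was at 233 and 286 against 1212 and 369 (log2 change 1.37, SE 0.514, limma adjusted p = 0.403). In all 3 genes both libraries were above both controls, and replicate 1 was the higher one by a wide margin. COL1A2, which overlapped the controls in shSMARCA4, was at 13159 and 3474 in shKDM1A against 2740 and 3262 in shLUC. Its higher mean therefore came mostly from replicate 1.

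Some members were high in both shKDM1A libraries. COL6A2 was at 6930 and 6580 against 3168 and 4004 in shLUC (0.92 on the log2 scale, SE 0.231, limma adjusted p = 0.256), and COL26A1 at 4197 and 3623 against 2462 in both controls. Their replicates lay close together and did not overlap shLUC. COL8A1, a network-forming collagen, went the other way, at 55 and 24 against 84 and 71 (log2 change -1.06, SE 0.568, limma adjusted p = 0.479), and ADAMTS5 was at 84 and 77 against 91 and 94. Without shKDM1A replicate 1 the median of the 53 members was 0.18, with 41 above 0 and 0 calls. Without replicate 2 it was 0.75, with 48 above 0 and 28 calls, all higher, beside 9.94% of all rows.

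In the libraries labelled shMAFK no member passed limma's test, beside 0.0135% of all rows, and 11 had an unadjusted limma p under 0.05, beside 8.77% of all rows. The procollagen N-proteinase ADAMTS2 was at 184 and 262 against 62 and 132 in shLUC (1.27 on the log2 scale, SE 0.355, limma adjusted p = 0.293). COL16A1 was at 285 and 326 against 119 and 134 (1.27, SE 0.382, 0.335), and COL7A1 at 386 and 897 against 233 and 286 (1.19, SE 0.514, 0.564). These 3 genes were above both controls in both libraries, and COL7A1 differed most between its replicates. Among lower members, LOXL1 was at 106 and 65 against 174 and 232 (log2 change -1.27, SE 0.365, limma adjusted p = 0.311), COL8A1 at 53 and 20 against 84 and 71, and COL5A2 at 722 and 534 against 1200 and 1356. These 3 were below both controls in both libraries, with limma adjusted p = 0.6 for COL8A1 and 0.514 for COL5A2. The libraries did not overlap shLUC for 32 members, beside 49.1% of all rows, 17 higher (all rows 23.8%) and 15 lower (all rows 25.3%). Means differed by at least 2-fold upwards for 4 (all rows 1.14%) and downwards for 3 (all rows 0.947%). Counted by a fitted log2 change of at least 1, these counts were also 4 and 3 (all rows 1.21% and 1.07%), and became 5 and 4 without shMAFK replicate 1 (all rows 1.6% and 1.68%), and 2 and 0 without shMAFK replicate 2 (all rows 1.4% and 0.933%). With a separate weight for each group 4 members passed (COL14A1, COL16A1, COL5A2, LOXL1), beside 3.29% of all rows.

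The shE2F6 group had the smallest median absolute log2 change of the members, 0.26 against 0.16 over all rows. No member passed limma's test, beside 0% of all rows, and 5 had an unadjusted limma p under 0.05, beside 5.09% of all rows. No member's mean differed by 2-fold in either direction, beside 0.338% of all rows higher and 0.609% lower. After COL14A1, the largest positive log2 changes were those of ADAMTSL3, at 77 and 92 against 67 and 40 in shLUC, and COL2A1, at 110 and 116 against 79 and 75, neither of which passed (limma adjusted p = 0.987 and 1). ADAMTS10, a fibrillin-binding protease, was the lowest relative to shLUC, at 94 and 114 against 210 and 200 (log2 change -0.98, SE 0.252, limma adjusted p = 0.735). ADAMTS5 was at 59 and 51 against 91 and 94, and ADAMTS8 at 366 and 232 against 486 and 390. Both were below the controls without overlap, with log2 changes of -0.74 and -0.58. The libraries did not overlap shLUC for 29 members, beside 40.7% of all rows, 19 higher (all rows 20.3%) and 10 lower (all rows 20.4%).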

How the data were processed

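The deposited values are scores: whole numbers that the authors normalized and rounded, read here as normalized tag counts. STAR, STARsolo and hg38 are named per the submitters' processing notes, without a role; the normalization, the annotation, the strand setting and the read depth are not given in the sources used here. All 10 libraries have the same median of 594 and the same maximum of 148866, so a change in total RNA would not be seen. Values per library were used, and 0 columns were unmapped.

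Values were analysed as log2(value + 1) with limma 3.58.1 in R 4.3.3 (trend, two-sided, 1 fit of all 10 libraries, 5 residual degrees of freedom). Benjamini-Hochberg adjustment ran over all 14785 rows, which all had a mean of at least 10, with a threshold of 0.05. Fold changes on this scale understate those of low rows. A moderated F-test compared the knockdowns. Gene positions and exon lengths are from GENCODE release 29 (GRCh38), and promoter sequences from RefSeq (GRCh38.p14). Tables and plots used Python 3.11.15, pandas 2.3.3 and matplotlib 3.10.9.

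Members and lists were chosen with earlier results of these data known. Named members are those past the threshold in any comparison or the F-test, the 3 largest rises and falls per knockdown among members without overlap and with a higher mean of at least 50, the 5 highest per kilobase, head-to-head pairs, and list genes past the threshold. Other members named (partner chains, close relatives, the lysyl oxidases, COL26A1 and COL1A2 in shKDM1A) were chosen after their values were seen. Lists were collagen folding and modification, export and propeptide processing, collagen receptors, ADAMTS substrates and inhibitors, elastic fibre partners, matrix metalloproteinases, small proteoglycans, and markers of stem cells, fibroblasts or mesenchyme, mesendoderm and endoderm, neural cells and trophoblast. Alternatives covered the pseudocount, filter, scaling, variance model, group weights, libraries in the fit, a replicate block and each library left out.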

Additional observations from a re-analysis of the deposited data

How the results depend on the processing

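Of 920 alternative values for 45 named results, 801 kept their side of the threshold and any direction they had. Of the rest, 107 lost the call, 12 gained one and 0 changed direction. Part of this was fixed in advance. Members named against shLUC had libraries that did not overlap the controls, so leaving 1 library out could not reverse them. F-test results have no direction. The alternative without a filter equals the main fit, and results that were not calls to begin with could not lose one. The number of members called in shSMARCA4 was 12, and it was 20 without both shKDM1A libraries, beside 7.86% of all rows, and 2 to 20 with 1 library left out, beside 0.602% to 7.84%. In shMAFK it was 0, and it was 4 with group weights, beside 3.29% of all rows, and 1 without both shKDM1A libraries (COL14A1), beside 0.23%. In shE2F6 it was 0, and 1 with group weights (COL14A1), beside 0.142% of all rows. In shKDM1A it was 0, and 0 to 28 with 1 library left out, beside 0.00676% to 21.9% of all rows. The F-test count was 15, and it was 6 to 40 with 1 library left out, beside 1.88% to 35.9% of all rows. The F-test count was 0 without shSMARCA4, beside 0.25% of all rows. With 1 library left out, the lone library of that group was assumed to vary like those of the other groups. The cause of these shifts was not tested.

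Replicate numbers gave no pairing common to all groups: over 10 pairs of groups, deviations of libraries with the same number correlated at -0.0503 to 0.337, over 0.1 in 2 pairs. The highest value was that of shSMARCA4 with shE2F6, and a replicate effect shared by only these 2 groups was not tested. With a replicate block the counts were 11 in shSMARCA4 (10 of them shared, with LOXL3 added), 0 in shMAFK, 0 in shE2F6 and 0 in shKDM1A, and 16 in the F-test (14 shared). In the same order, these stood beside 4.35%, 0.00676%, 0%, 0.0203% and 6.59% of all rows. With 2 libraries a group and an unknown read depth, precision rests on a spread shared by groups whose replicates differ unequally, with a median absolute log2 difference over members of 0.59 in shKDM1A and 0.18 to 0.21 elsewhere.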
